A study of Monodelphis domestica with 2 samples.

Results

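IT_A_5 was 1 of the 5 types of IT_A, the largest subclass of intratelencephalic (IT) neurons in primary visual cortex (V1) of adult gray short-tailed opossums (*Monodelphis domestica*). Its members were the nuclei that carried both the type label IT_A_5 and the subclass label IT_A in the deposited metadata. They were 982 of 9864 IT_A nuclei, of 32764 labelled nuclei, and of 36558 barcodes in all. The study labelled types below the subclass but left them undiscussed, stating that their interpretability was limited in opossums. V1 of both hemispheres was pooled within each of 2 adult male colony opossums, aged 1.5 years (animal 1) and 2 years (animal 2), with no treatment and no altered gene in either. Nuclei were isolated from frozen tissue, stained with Draq5, sorted by fluorescence and loaded into 2 wells of a 10x Chromium 3′ chip per animal (libraries 1A and 1B, 2A and 2B). The libraries of an animal came from 1 suspension and were counted as 1 replicate, so n = 2 animals throughout, and since the animals were handled by different experimenters, animal and experimenter cannot be told apart.

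IT neurons are glutamatergic cells of the cortex whose axons stay within the telencephalon. In the mouse they are named by layer, and the homeodomain factors Cux1 and Cux2 mark those of the upper layers, whereas the nuclear receptor Rorb marks those of layer 4, which receive thalamic input. Layer position was not measured in these nuclei, so levels of such genes are given below as expression only. Cell types of this kind differ mainly in channels, receptors, adhesion molecules and transcription factors, and the results are ordered by these roles.

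IT_A_5 was the smallest IT_A type in both animals. It held 264 and 235 nuclei in libraries 1A and 1B and 187 and 296 in 2A and 2B. Its share of the IT_A nuclei was 12.0% and 11.2% in the libraries of animal 1 and 8.17% and 9.04% in those of animal 2, which gave 11.6% in animal 1 (95% Clopper-Pearson interval 10.7 to 12.6) and 8.68% in animal 2 (7.96 to 9.45), or 10.1% ± 2.06 (SD, n = 2). The intervals cover counting error only. The animals held 499 and 483 IT_A_5 nuclei, whereas they held 981 and 2465 IT_A_1 nuclei, which enter the same denominator. Of all labelled nuclei, IT_A_5 made up 3.11% in animal 1 and 2.89% in animal 2. No barcode of an IT_A_5 nucleus occurred in IT_A_5 nuclei of another library, and 134 barcodes were shared over the 6 pairs of libraries among all 36558.

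**Figure D1:**
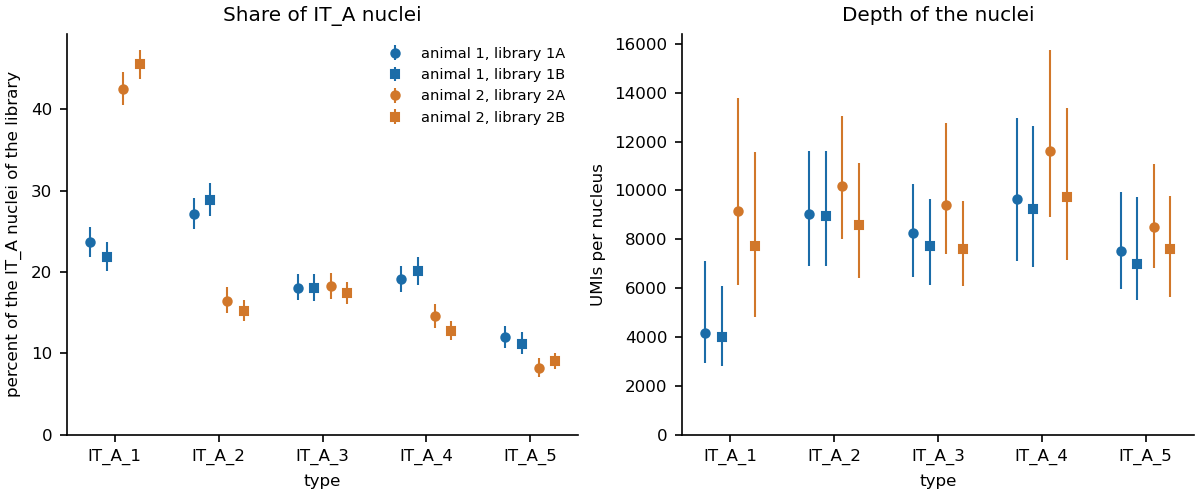
Share of IT_A nuclei (left, percent of the library's IT_A nuclei, bars are 95% Clopper-Pearson intervals) and UMIs per nucleus (right, points are medians, bars run from the 25th to the 75th percentile) for the 5 IT_A types in each of the 4 libraries. IT_A_5 took between 8.17% and 12.0% of the IT_A nuclei, with median depths of 6981 to 8520 UMIs, while IT_A_1 nuclei of animal 1 were far shallower than all others.

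IT_A_5 nuclei were somewhat shallower than those of IT_A_2, IT_A_3 and IT_A_4 in both animals. The median number of UMIs (unique molecular identifiers, the counted transcripts) per nucleus was 7526 and 6981 in libraries 1A and 1B and 8520 and 7622 in 2A and 2B, or 7688 ± 575 over the animals, and the median number of genes detected was 2992 and 3109 in animals 1 and 2. IT_A_2, IT_A_3 and IT_A_4 had library medians of 7618 to 11618 UMIs. IT_A_1 stood apart, with 4168 and 3979 UMIs in the libraries of animal 1 against 9153.5 and 7727 in animal 2, and the main counts below are also given without it. Scrublet, a program that scores how much a nucleus resembles a mixture of 2 nuclei, gave IT_A_5 the lowest median score of the 5 types in both animals, 0.0274 and 0.0231, against 0.0459 to 0.0828 in the others, and called 7 of the 982 nuclei doublets.

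The label was checked against marker genes. CUX2, the marker given for the type, was present at 233 CPM in animal 1 (CPM, the gene's counts scaled to a common total for each sum of nuclei) and 280 in animal 2, but this was the lowest level of any IT_A type. The other 8 sums of nuclei, 1 per type and animal, ranged from 284 to 576 CPM with a median of 443, and did not overlap with IT_A_5. Against the mean of the other types CUX2 was lower by a log2 fold change of -0.79 ± 0.17 (SE; adjusted p = 0.0124, edgeR quasi-likelihood test, which is the test of every adjusted p below). Without IT_A_1 the change was -0.65 (adjusted p = 0.048), and with the other IT_A nuclei pooled it was -0.84 and did not pass (adjusted p = 0.0623). Against single types CUX2 was called lower than in IT_A_1 (-1.21, adjusted p = 0.00252) and IT_A_4 (-1.02, adjusted p = 0.00789). It did not pass against IT_A_2 (-0.28, adjusted p = 0.522) or IT_A_3 (-0.65, adjusted p = 0.1). Compared with other subclasses, CUX2 in IT_A_5 was higher than in IT_C (31.9 ± 13.8 CPM; log2 fold change 2.98, adjusted p = 1.75e-05), lower than in IT_D (581 ± 139 CPM; -1.23, adjusted p = 0.0136) and not distinguishable from IT_B (437 ± 133 CPM; -0.88, adjusted p = 0.0644). CUX2 did not set IT neurons apart in these data, since the GABAergic Sst subclass held 552 ± 42.6 CPM and oligodendrocyte precursors (OPC) held 241 ± 2.71.

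A CUX2 UMI was found in 69.9% of IT_A_5 nuclei of animal 1 and 74.3% of animal 2. In oligodendrocytes (OD), a type not marked by the gene, the shares were 3.64% and 6.51%, at a median depth of 1917 UMIs against 7644.5 in IT_A_5. When every nucleus was thinned to 5846 UMIs, CUX2 was detected in 67.7% and 70.9% of IT_A_5 nuclei, above the 65.9% and 61.9% of IT_A_2 and below the 78.4% to 91.1% of the remaining types. Thinning left out 26.9% and 23.2% of the IT_A_5 nuclei and 68.9% of the IT_A_1 nuclei of animal 1, which were shallower.

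General markers placed the type among glutamatergic neurons. The summed level of the 5 glutamatergic genes with a symbol was 1148 and 1156 CPM, against 85.5 to 130 in oligodendrocytes. Of these 5, NEUROD6, a neuronal differentiation factor, was lower than in the other types (log2 fold change -0.70, adjusted p = 0.0324), a call that was lost without IT_A_1 (0.0957) and with the other nuclei pooled (0.125). The other 4 did not pass, although SV2B, a synaptic vesicle protein, passed when the animal entered the fit as a block (adjusted p = 0.00612). SV2B also passed in thinned nuclei (0.0453) and without a filter on low counts (0.0375), but not in the other alternatives. SV2B stood at 747 and 727 CPM, below all 8 sums of the other types (789 to 943). The 10 GABAergic markers summed to 29.6 and 28.1 CPM, against 2646 to 4114 in the GABAergic subclasses. ADARB2, a marker of interneurons of the caudal ganglionic eminence, was lower in IT_A_5 (-1.54, adjusted p = 0.00907). The 11 markers of deep projection neurons that are not IT summed to 239 and 241 CPM, against 1313 to 3515 in the subclasses L5PT, L5NP, L6CT and L6b. Within that list TLE4 was lower (-0.86, adjusted p = 0.0313) and TSHZ2 higher (1.11, adjusted p = 0.0252) out of 10 genes tested. The TLE4 call was lost in thinned nuclei (adjusted p = 0.108) and on labels from other genes (0.0779). The TSHZ2 call, at 3.24 and 4.29 CPM, was lost with the other nuclei pooled (0.115) and with DESeq2 (0.149), and the gene was too low to be tested in thinned nuclei.

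Transcripts of non-neuronal cells were low in IT_A_5 and within the range of the other types. The microglial markers summed to 2.74 and 2.39 CPM (1.16 to 2.97 in the other types, at least 1516 in microglia), those of OPC to 1.49 and 2.62 (0.887 to 2.77; at least 1017 in OPC), and those of endothelial cells to 17.4 and 33.9 (3.69 to 39.7; at least 3042 in endothelial cells). Oligodendrocyte markers summed to 110 and 106 CPM (80.9 to 140; at least 16550 in OD) and astrocyte markers to 146 and 137 (109 to 213; at least 20040 in astrocytes). Of the 16 non-neuronal markers tested 1 was called, and that call was lost without IT_A_1 and with the other nuclei pooled. A single microglial, OPC and endothelial marker could be tested and did not pass, although the endothelial one passed with the animal as a block.

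**Figure D2:**
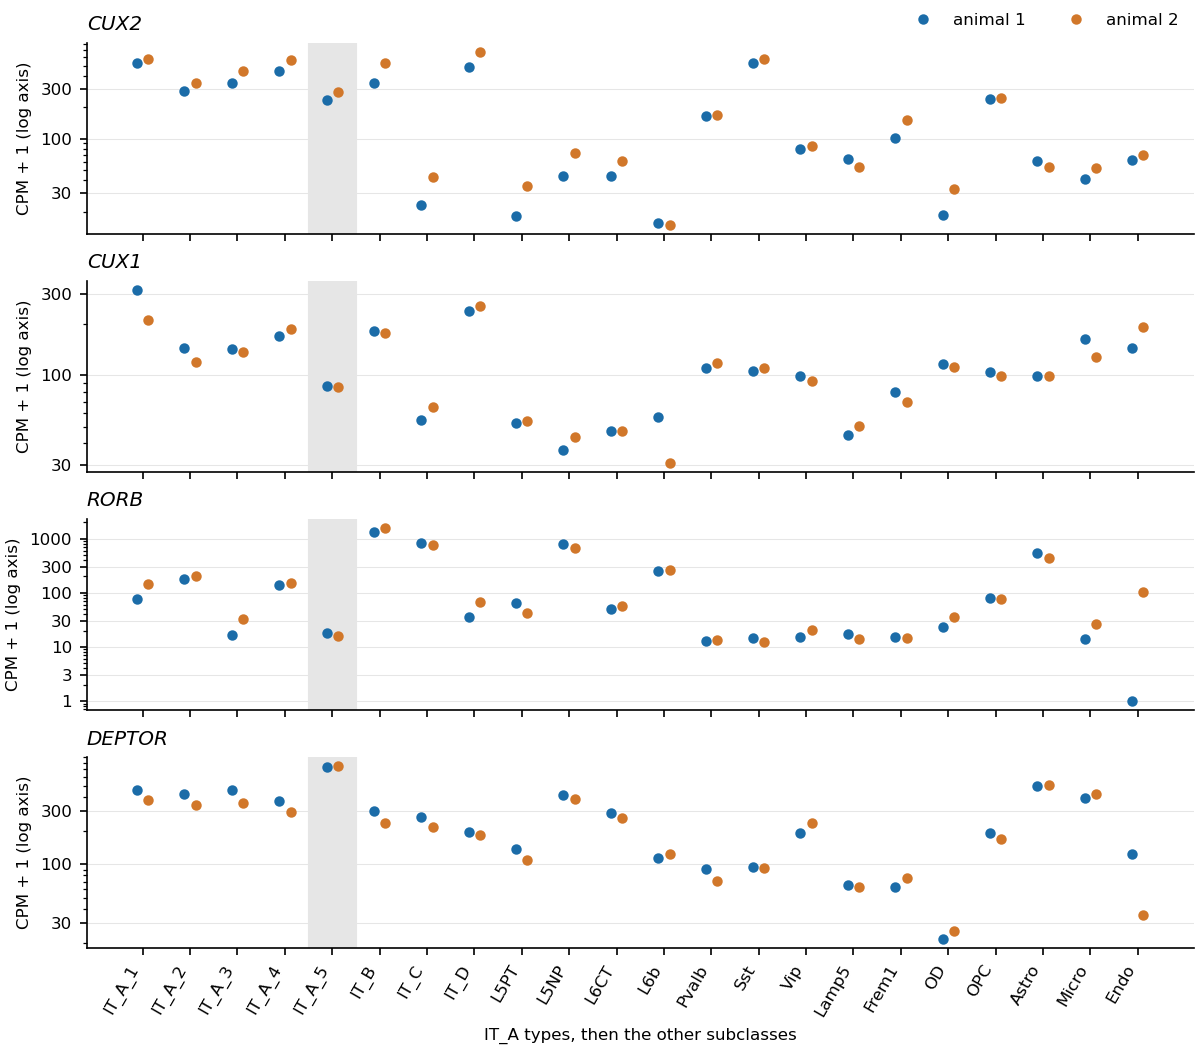
Levels of CUX2, CUX1, RORB and DEPTOR (CPM + 1, log axis) in the 5 IT_A types and the 17 other subclasses, 1 point per animal. IT_A_5 (grey band) had the lowest CUX2 and CUX1 of the IT_A types, RORB near 16 CPM, and DEPTOR above every other sum.

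Against the mean of the other 4 IT_A types, 2096 of 17001 genes (12.3%) were called at an adjusted p under 0.05, 1085 higher in IT_A_5 (6.38%) and 1011 lower (5.95%). Of these, 474 were higher and 492 lower by at least 2-fold, and 2093 had the same direction in both animals. Because the study defined the types by clustering these same counts, the calls describe the label and give no independent evidence for it, and the p-values measure only whether the difference recurred in 2 animals. With the animal as a block, 3608 genes were called (21.2%), with IT_A_1 left out 1767, and with the other IT_A nuclei pooled into 1 sum per animal 1061, of which 40.4% were higher in IT_A_5 instead of 51.8%. When each gene was tested on type labels assigned from other genes only, 2013 genes were called, 1760 of them among the 2096. That assignment was learned from nuclei with the deposited labels, which rest on all genes. It is therefore not independent of the tested gene and does not remove this limit.

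IT_A_3 was the type most like IT_A_5. Against IT_A_3 984 genes were called (5.79%; 521 higher and 463 lower), against IT_A_2 1463 (8.61%; 643 and 820), against IT_A_4 2188 (12.9%; 955 and 1233) and against IT_A_1 3877 (22.8%; 2070 and 1807). The last comparison includes the shallow IT_A_1 nuclei of animal 1, and its count was 2527 after thinning. A total of 166 genes were called higher and 207 lower against each of the 4 types in turn, and 179 and 227 against each of the 3 types other than IT_A_1. Against the other IT subclasses the counts were 3231 for IT_B (18.3%), 3687 for IT_C (20.9%) and 3271 for IT_D (18.5%), of which IT_D had only 58 nuclei in animal 1. With equal numbers of nuclei the counts were 1743, 1905 and 2169, so IT_D then had the most.

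Correlations across 3000 variable genes gave the same order of the IT_A types when averaged over the animals. Spearman's rho of mean log-normalised expression with IT_A_5 was 0.895 and 0.899 for IT_A_3 in animals 1 and 2, 0.891 and 0.892 for IT_A_2, 0.881 and 0.887 for IT_A_4, and 0.863 and 0.895 for IT_A_1. Averaged over the animals, the 4 pairs with IT_A_5 (0.879 to 0.897) lay below the 6 pairs without it (0.905 to 0.917), although the ranges overlapped within each animal. Among other subclasses L5PT followed at 0.863 and 0.862, then L6CT, IT_B (0.849 and 0.843) and IT_C (0.843 and 0.842). These points share libraries and depend on depth, and genes are not replicates of each other, and a p is therefore not given. IT_A_5 of one animal correlated with IT_A_5 of the other at 0.906.

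Nuclei of one animal were assigned to the types of the other from their expression profiles. The study defined the types by clustering these same counts, and the variable genes and principal components were taken from both animals together. A high share was therefore favoured in advance and gives no independent evidence that the type recurs. Of the 483 IT_A_5 nuclei of animal 2, 447 (92.5%) were assigned to IT_A_5 of animal 1, and in the reverse direction 458 of 499 (91.8%) were. The nuclei assigned elsewhere went mainly to IT_A_3 (15 and 35 nuclei) and, in animal 2, to IT_A_1 (20 nuclei). Conversely, in animal 1 IT_A_5 received 6.45% of the IT_A_3 nuclei, 3.98% of IT_A_1, 2.14% of IT_A_4 and 1.50% of IT_A_2. In animal 2 it received 4.34% of the IT_A_2 nuclei, 2.63% of IT_A_3, 2.27% of IT_A_1 and no IT_A_4 nucleus of 752.

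The genes with the largest changes were taken by a fixed rule, 14 in each direction, among called genes with a symbol, at least 20 CPM on the higher side in both animals, and IT_A_5 above or below each other type in both animals. A total of 333 genes met the rule for higher and 395 for lower. All 28 genes had 2 IT_A_5 values outside the range of the 8 other sums, which the rule fixed within animals but not between them.

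**Figure D3:**
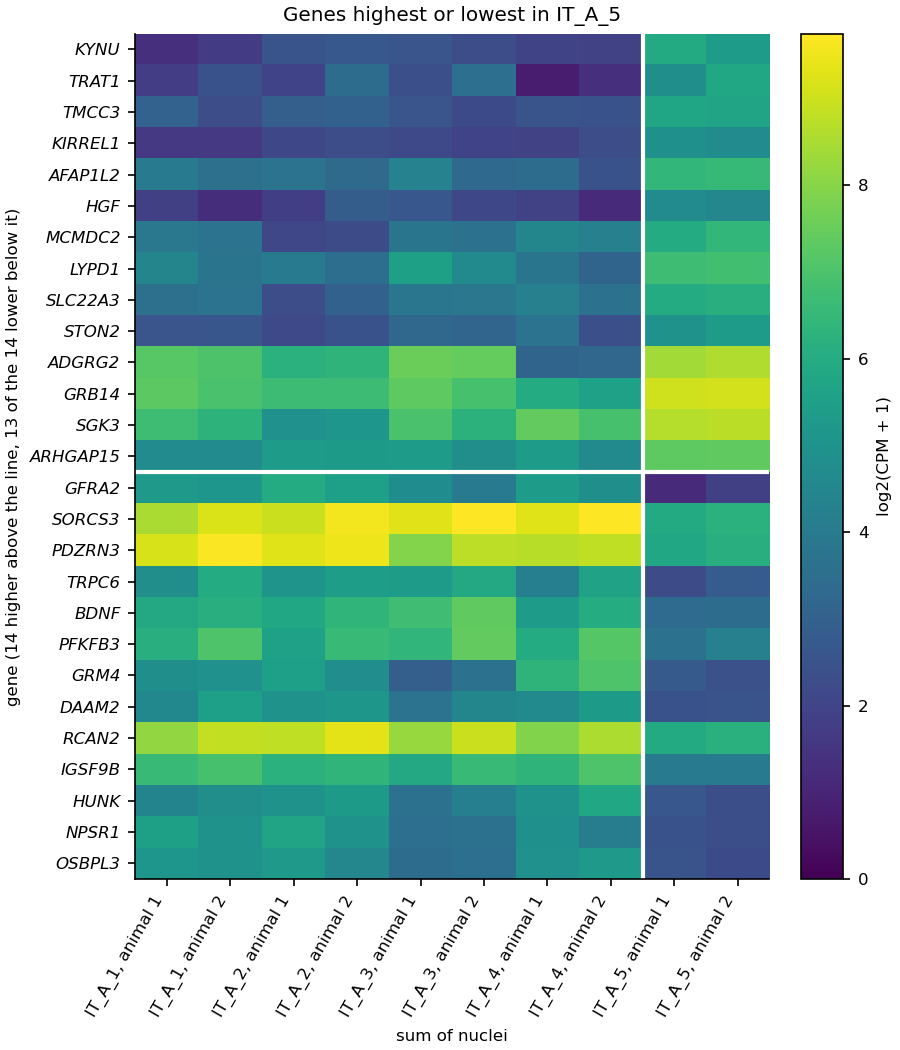
Levels, as log2(CPM + 1), of the 14 genes with the largest positive change in IT_A_5 and 13 of the 14 with the largest negative change, in the 10 sums of nuclei (5 types, 2 animals). The 2 IT_A_5 columns at the right lie above or below the 8 others in every row. The choice of genes required this within each animal. For GRM4 the gap to IT_A_3 was small (5.73 and 4.29 CPM against 6.80 and 11.3). ADGRG2 was low in IT_A_4 beside the other types.

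Among the genes higher in IT_A_5 were several with roles in metabolism and transport. KYNU, the kynureninase of tryptophan breakdown, stood at 61.5 and 40.3 CPM in IT_A_5 of animals 1 and 2, against 1.48 to 5.48 with a median of 3.51 in the 8 other sums. Its levels were 75.5 and 45.2 CPM in libraries 1A and 1B and 53.3 and 30.7 in 2A and 2B, all above every other sum. The log2 fold change was 3.83 ± 0.168 (adjusted p = 1.1e-06). SLC22A3, an organic cation transporter, stood at 62.5 and 70.1 CPM against 3.88 to 17.9 (log2 fold change 2.60 ± 0.171, adjusted p = 9.79e-06).

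Several of the genes act in signalling. GRB14, an adaptor that restrains insulin receptor signalling, stood at 522 and 535 CPM in IT_A_5, against 46.7 to 159 with a median of 111 in the other sums (log2 fold change 2.33 ± 0.099, adjusted p = 1.1e-06). SGK3, a kinase downstream of phosphoinositide signalling, stood at 400 and 425 CPM against 29.2 to 167 (2.33 ± 0.144, adjusted p = 8.3e-06). For both genes all 4 libraries lay above every other sum. ADGRG2, an adhesion G protein-coupled receptor, stood at 332 and 381 CPM. It was graded over the other types, at 188 and 175 CPM in IT_A_3, 146 and 129 in IT_A_1, 74.0 and 79.1 in IT_A_2 and 7.93 and 8.26 in IT_A_4 (log2 fold change 2.46 ± 0.085, adjusted p = 3.01e-07). HGF, the ligand of the receptor tyrosine kinase MET, stood at 24.9 and 21.7 CPM against 1.28 to 6.28 (2.99 ± 0.299, adjusted p = 1.39e-04). TRAT1, an adaptor of T cell receptor signalling, had the largest ratio between the animals of the 14, with 27.6 and 56.3 CPM (3.43 ± 0.423, adjusted p = 5e-04).

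The remaining genes of this group act on the cytoskeleton, membranes and adhesion. AFAP1L2, an actin-associated adaptor, stood at 86.9 and 92.5 CPM against 4.42 to 18.7, and ARHGAP15, which switches off the GTPase Rac, at 159 and 165 CPM against 24.6 to 41.1. LYPD1, a membrane-anchored modulator of nicotinic receptors, stood at 103 and 110 CPM against 7.91 to 45.2, the highest of them in IT_A_3 of animal 1. STON2, an endocytic adaptor for synaptic vesicle proteins, stood at 30.6 and 41.2 CPM against 3.45 to 12.2. KIRREL1, an adhesion molecule of the immunoglobulin family, TMCC3, a membrane protein, and MCMDC2, known from meiotic recombination, completed the 14, with log2 fold changes of 3.10, 3.27 and 2.85. Each of the 14 was also called higher against each of the other 4 types on its own.

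Levels in the rest of the cortex differed among these genes. For TRAT1, MCMDC2, LYPD1, ADGRG2, GRB14 and SGK3 no other subclass exceeded IT_A_5 in both animals. The highest level of GRB14 outside IT_A was 98.2 CPM in L5PT, and that of ADGRG2 was 42.3 CPM in L6b. The other 8 were higher in at least 1 subclass in both animals, as KYNU in oligodendrocytes (483 CPM), ARHGAP15 (4464) and TMCC3 (1273) in microglia, AFAP1L2 in endothelial cells (1207) and STON2 in astrocytes (632). The microglial and endothelial marker sums given above were within the range of the other types, at 2.39 to 2.74 and 17.4 to 33.9 CPM. The part of such transcripts in these levels was not tested.

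Genes lower in IT_A_5 included receptors and trophic factors. GFRA2, the co-receptor for neurturin, stood at 1.25 and 2.62 CPM in IT_A_5, against 15.6 to 63.4 with a median of 35.8 in the other sums (log2 fold change -4.15 ± 0.341, adjusted p = 4.2e-05). It was highest in IT_A_2 and lowest, among the others, in IT_A_3. BDNF, the neurotrophin released with activity, stood at 9.71 and 9.78 CPM, against 57.4 and 69.7 in IT_A_1, 57.0 and 81.8 in IT_A_2, 107 and 166 in IT_A_3 and 39.8 and 64.1 in IT_A_4 (-3.00 ± 0.331, adjusted p = 2.6e-04). SORCS3, a sorting receptor of the VPS10 family, stood at 61.99 and 74.16 CPM against 359 to 858 (-3.28 ± 0.304, adjusted p = 8.37e-05). In both animals SORCS3 and BDNF were below all other types in every library.

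GRM4, a presynaptic metabotropic glutamate receptor, stood at 5.73 and 4.29 CPM against 6.80 to 132 (-2.71 ± 0.374, adjusted p = 9.52e-04). Its level in IT_A_3 was also low (6.80 and 11.3), and that difference did not pass (adjusted p = 0.321). NPSR1, the receptor of neuropeptide S, showed the same order, with 4.48 and 4.05 CPM in IT_A_5 and 10.7 and 11.4 in IT_A_3 (adjusted p = 0.0698), against 16.3 to 50.3 in the other types. TRPC6, a cation channel, stood at 3.73 and 6.20 CPM against 17.5 to 62.8 (-3.09 ± 0.585, adjusted p = 0.0062). Its means in IT_B, IT_C and IT_D were also low (1.77, 3.80 and 4.41 CPM). IT_A_5 did not differ from them at the threshold (adjusted p = 0.319, 0.775 and 0.723).

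Genes acting inside the cell were also among the lowest. PDZRN3, a ubiquitin ligase, stood at 54.3 and 68.4 CPM against 242 to 822 (-3.11, adjusted p = 8.37e-05). RCAN2, an inhibitor of calcineurin, stood at 61.5 and 72.5 CPM against 238 to 658, and PFKFB3, a regulator of glycolysis, at 11.7 and 18.1 against 46.3 to 170. IGSF9B, an adhesion molecule of inhibitory synapses, stood at 15.4 and 15.5 CPM against 57.4 to 132. DAAM2, a formin, HUNK, a kinase, and OSBPL3, a lipid-binding protein, had log2 fold changes of -2.64, -2.60 and -2.58. Against single types, all 14 were called lower than IT_A_1 and IT_A_4, 13 of 14 lower than IT_A_2, and 10 of 14 lower than IT_A_3, where GRM4, DAAM2 and NPSR1 were among those that did not pass. Most of these genes were expressed more in other subclasses: between 3 (BDNF) and 17 (PFKFB3, DAAM2) of the 17 exceeded IT_A_5 in both animals.

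For some genes the difference was seen in most nuclei and for others in few. After thinning, a UMI of GRB14 was found in 87.7% and 91.1% of IT_A_5 nuclei, against 18.6% to 55.3% in the other types, and one of SGK3 in 86.3% and 84.4% against 14.4% to 50.8%. For KYNU the shares were 12.1% and 6.74%, against 0.984% to 2.89%, so most IT_A_5 nuclei had no UMI of this gene at that depth. In unthinned nuclei KYNU was found in 14.8% and 10.1% of IT_A_5 and in 46.7% and 44.2% of oligodendrocytes, and GRB14 in 91.4% and 91.9% against 1.58% and 1.81%. SORCS3 was detected in 18.4% and 24.5% of thinned IT_A_5 nuclei against 60.3% to 88.6%, and GFRA2 in 1.10% and 1.62% against 7.46% to 25.5%. GFRA2 was found in 0.833% and 0.792% of unthinned oligodendrocytes. Their median depth was only 1917 UMIs, so these shares do not compare levels at equal depth.

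Counted per thinned nucleus, the median IT_A_5 nucleus held a UMI of 5 of the 14 higher genes in both animals, with a 10th percentile of 3 and a 90th of 7. The medians of the other types were 1 or 2, and their 90th percentiles 2 to 4. Of the 14 lower genes the median IT_A_5 nucleus held 1, and 37.0% and 35.3% of the nuclei held none, against medians of 3 to 5 and at most 2.72% with none in the other types. The ranges met at the edges, so nuclei with intermediate numbers occurred in each type. These counts rest on genes chosen for the difference and are a description.

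**Figure D4:**
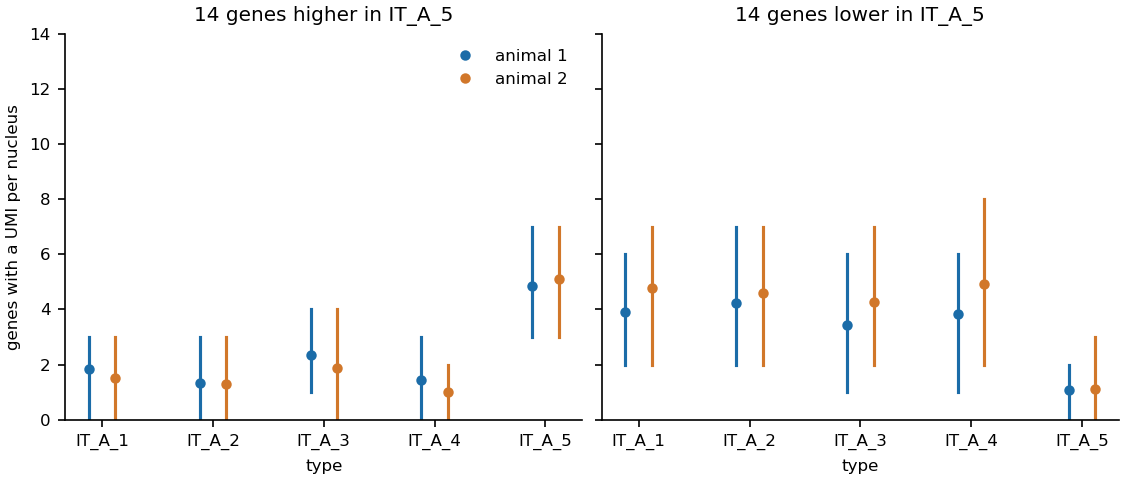
Number of the 14 higher (left) and 14 lower (right) genes with at least 1 UMI per nucleus thinned to 5846 UMIs, by type and animal. Points are means and bars run from the 10th to the 90th percentile of nuclei. IT_A_5 nuclei averaged 4.86 and 5.10 of the higher genes and 1.06 and 1.12 of the lower genes in animals 1 and 2.

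Gene families were then counted against the same comparison, in which 6.38% of all genes were called higher and 5.95% lower, with a median log2 fold change of 0.024. The family lists hold genes with a symbol and are described by counts, with no test of the list. Without IT_A_1, 3 members were higher and 8 lower among potassium channels, 5 and 9 among the other channels, 4 and 6 among glutamate receptors and 2 and 3 among GABA and glycine receptors. The counts were then 3 and 6 for neuromodulator receptors, 6 and 3 for cadherins, 11 and 8 for axon guidance, 6 and 13 for matrix genes, and 9 and 7 for transcription factors.

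**Figure D5:**
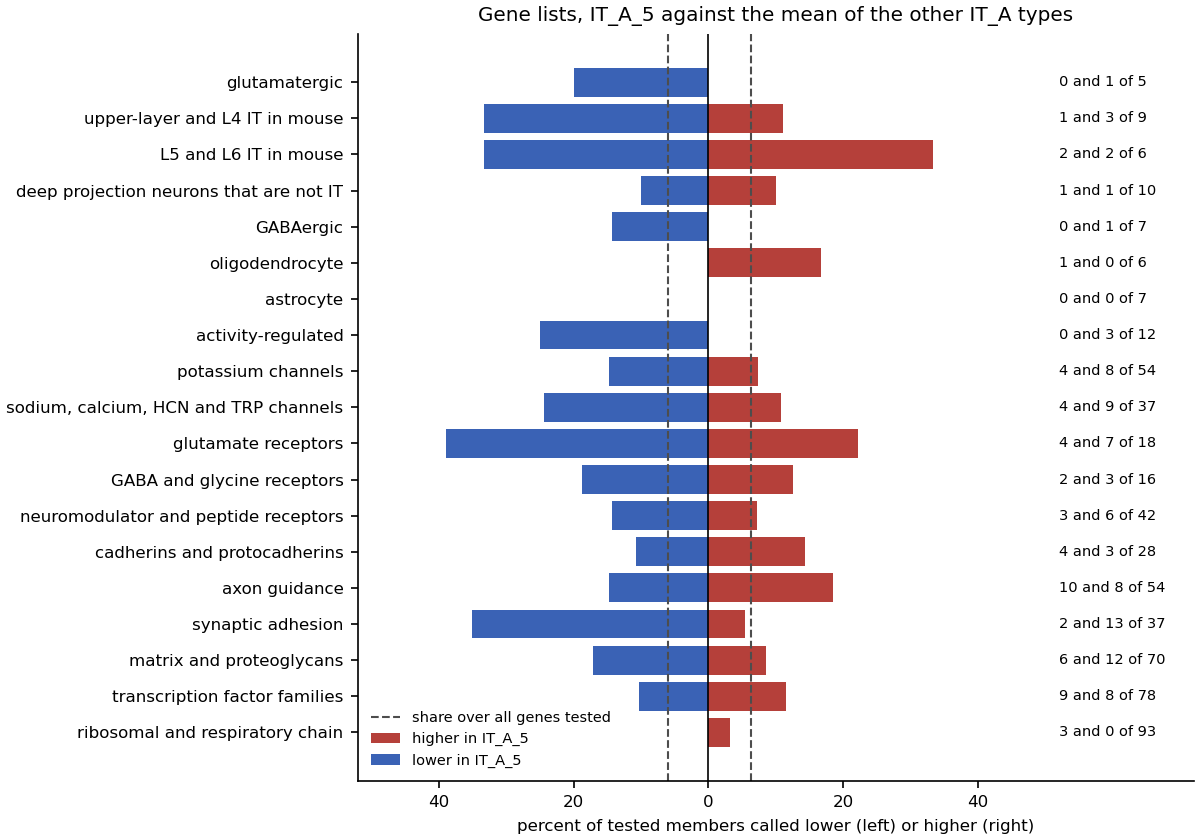
Percent of the tested members of each list called higher (right, red) or lower (left, blue) in IT_A_5 against the mean of the other IT_A types, for the lists with at least 5 members tested. Dashed lines mark the shares over all genes (6.38% higher, 5.95% lower), and the numbers at the right give members higher and lower of those tested. Synaptic adhesion had 13 of 37 members lower and 2 higher, and ribosomal and respiratory chain genes 3 of 93 called.

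Transcription factors that mark IT layers in the mouse did not move together. Of 9 tested genes of the upper layers and layer 4, RORB, CUX1 and CUX2 were lower and LHX2, a LIM homeodomain factor, was higher. RORB stood at 17.18 and 15.02 CPM, close to IT_A_3 (15.3 and 31.8) and below IT_A_1, IT_A_2 and IT_A_4 (76.1 to 203), with a log2 fold change of -2.57 ± 0.349 (adjusted p = 8.82e-04). In IT_B, RORB reached 1468 CPM (log2 fold change of IT_A_5 against IT_B -6.62, adjusted p = 9.72e-08). CUX1 stood at 86.1 and 84.4 CPM, below all 8 other sums (119 to 317; -1.05 ± 0.146, adjusted p = 9.97e-04). OTOF, which encodes the calcium sensor otoferlin, stood at 25.9 CPM in animal 1 and 84.2 in animal 2, against 4.23 to 75.5, and WHRN, a scaffold protein gene, at 24.9 and 35.5 against 8.31 to 27.9. Neither passed (adjusted p = 0.0532 and 0.0611). Both passed with the animal as a block (2.02e-05 and 0.00601), in thinned nuclei (0.0474 and 0.0233) and on labels from other genes (0.044 and 0.0435). Neither passed with the other nuclei pooled (0.493 and 0.0963), and with DESeq2 only WHRN did (0.0223, against 0.142 for OTOF). With the block the list had 4 higher and 3 lower.

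Of 6 tested genes of mouse layer 5 and layer 6 IT cells, DEPTOR and CDH9 were higher and ETV1 and OPRK1 lower. DEPTOR, an inhibitor of the kinase mTOR, stood at 730 and 755 CPM, above all 8 other sums (292 to 460; 0.92 ± 0.108, adjusted p = 3.65e-04), and no other subclass exceeded it in both animals. It was also higher than in IT_B (1.37), IT_C (1.62) and IT_D (1.97), with adjusted p of 1.68e-05, 2.86e-06 and 1.09e-06. CDH9, a cadherin of synaptic wiring, stood at 147 and 159 CPM, below IT_A_4 (266 and 241) and above the other types (26.0 to 60.9), with a log2 fold change of 1.19 (adjusted p = 6.75e-04). ETV1 and OPRK1 were low in IT_A_5, at 2.74 CPM or less, and the ETV1 call (-1.61, adjusted p = 0.00595) was lost in thinned nuclei (0.128).

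Over the transcription factor families, 9 of 78 were higher and 8 lower, with a median of 0.06. SATB1, a chromatin organiser, stood at 10.2 and 5.96 CPM against 20.3 to 45.4 (-2.04, adjusted p = 2.41e-04) and was lower than in all 17 other subclasses in both animals. ETV5 was lower (-1.11, adjusted p = 0.0416), a call that was lost without IT_A_1 (adjusted p = 0.124), with the other nuclei pooled (0.0646), in thinned nuclei (0.0604) and on labels from other genes (0.0518). With the animal as a block, 18 factors were higher and 11 lower, and with the other nuclei pooled 3 and 7.

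Ion channels had more members called lower than higher. Of 54 potassium channel genes, 4 were higher and 8 lower (8 and 17 with the block; median -0.11). KCNH1, a voltage-gated channel of the ether-a-go-go family, stood at 379 and 266 CPM against 663 to 1743 (-1.87 ± 0.16, adjusted p = 5.15e-05), and its relative KCNH5 at 98.8 and 86.8 against 147 to 552 (-1.68, adjusted p = 2.84e-04). The leak channel genes KCNK3 and KCNK1 were lower by -1.43 and -1.14 (adjusted p = 0.001 and 2.12e-04). KCNAB1, an auxiliary subunit of Shaker-type channels, was higher, at 399 and 439 CPM against 48.4 to 323 (1.35 ± 0.086, adjusted p = 8.97e-06).

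Of 37 sodium, calcium, HCN and TRP channel genes, 4 were higher and 9 lower (9 and 14 with the block; median -0.13), and with the other nuclei pooled 5 were called, each of them lower. Besides TRPC6, CACNA1H, a low-threshold calcium channel, stood at 1.25 and 3.34 CPM against 3.45 to 64.8 (-2.54, adjusted p = 2.35e-04), and TRPM3 at 46.0 and 34.1 against 87.5 to 262 (-2.06, adjusted p = 2.79e-04). The auxiliary calcium channel subunit CACNB4 was lower by -0.69 (adjusted p = 0.00958). TRPC4, at 54.3 and 41.2 CPM, was higher by 0.76 (adjusted p = 0.0115) but near IT_A_2 (53.4 and 38.1 CPM, adjusted p = 0.942), a call that was lost with the other nuclei pooled (adjusted p = 0.151).

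Of 18 glutamate receptor genes 11 were called (61.1%), against 12.3% of all genes and at most 40.5% in the other lists of receptors, channels, adhesion and matrix genes. The calls were 4 higher and 7 lower (8 and 7 with the block), and the median of the list was -0.05. Against IT_A_3 alone 2 were higher and 1 lower, and neither GRIK4 nor GRIK3 passed (adjusted p = 0.187 and 0.174). The counts were 4 and 6 against IT_A_1, 5 and 4 against IT_A_2, and 4 and 6 against IT_A_4. The kainate receptor genes split: GRIK4 was higher, at 1430 and 1650 CPM against 338 to 1191 (1.03 ± 0.111, adjusted p = 2.25e-04), as was GRIK2 (0.72, adjusted p = 4.82e-04), while GRIK3 was lower, at 18.67 and 15.02 CPM against 23.6 to 159 (-1.97 ± 0.202, adjusted p = 1.63e-04). GRIK3 was higher in all 17 other subclasses in both animals. Among NMDA receptor subunits, GRIN2A stood at 116 and 120 CPM against 185 to 519 (-1.43 ± 0.286, adjusted p = 0.0086), the obligatory subunit GRIN1 was lower by -0.44 (adjusted p = 0.0139, lost with the other nuclei pooled at 0.0817), and GRIN2C was higher, at 14.4 and 17.6 CPM against 1.16 to 2.77 (3.15 ± 0.203, adjusted p = 8.97e-06). Among AMPA receptor subunits, GRIA3 and GRIA2 were lower (-0.96 and -0.38, adjusted p = 4.63e-04 and 0.0481) and GRIA1 was higher (0.65, adjusted p = 0.0087). The GRIA2 call was lost in 4 of 10 alternatives (adjusted p of 0.0537 to 0.159). The metabotropic GRM3 was lower (-1.13, adjusted p = 0.0292), although its 127 and 117 CPM lay within the range of the other types (90.4 to 730) and the call was lost on labels from other genes (adjusted p = 0.0653). The list as a whole summed to 12540 and 13060 CPM, against 11330 to 12270 in the other types.

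Of 16 GABA and glycine receptor genes, 2 were higher and 3 lower (median -0.19). GABRA5, an alpha subunit found mostly outside synapses, stood at 19.4 and 13.4 CPM, near IT_A_3 (16.9 and 20.6) and below the other types (44.5 to 182; -1.82 ± 0.185, adjusted p = 1.59e-04). The glycine receptor gene GLRA2 stood at 43.3 and 34.1 against 52.4 to 101 (-0.89, adjusted p = 7.17e-04). GABRB2, with a log2 fold change of -0.41, did not pass (adjusted p = 0.102) and passed with the block (6.4e-04).

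Of 42 receptors for neuromodulators and peptides, 3 were higher and 6 lower (5 and 9 with the block; median -0.06). HCRTR2, an orexin receptor, stood at 16.2 and 14.5 CPM against 46.9 to 120 (-2.42 ± 0.372, adjusted p = 0.00184), and CCKBR, a cholecystokinin receptor, at 18.4 and 18.1 against 30.1 to 49.8 (-1.08, adjusted p = 9.97e-04). The opioid receptor genes OPRK1 and OPRD1, at 2.74 CPM or less in IT_A_5, were lower by -2.69 and -2.13 (adjusted p = 0.00607 and 0.00256). NTSR1, a neurotensin receptor, was higher, at 97.6 CPM in animal 1 and 200.3 in animal 2 against 37.9 to 126 (1.12, adjusted p = 0.0192), a call that was lost with the other nuclei pooled (adjusted p = 0.122). SSTR4, a somatostatin receptor, stood at 36.3 and 33.2 CPM against 9.77 to 22.9 (1.05, adjusted p = 5.69e-04), and the serotonin receptor gene HTR1A was higher by 2.29 (adjusted p = 0.00213). HTR2A stood at 34.1 and 23.4 CPM against 20.2 to 79.4 and did not pass (-0.72, adjusted p = 0.0578). It passed with the block (7.24e-04), on labels from other genes (0.032), without Scrublet doublets (0.0489) and with DESeq2 (0.0105). It also passed without the filter on low counts (1.74e-05), but not in the other alternatives.

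Of 37 adhesion molecules of synapses, 13 were lower, 2 were higher and 22 did not pass, with a median of -0.19. The lower genes included the contactins CNTN2 (8.46 and 6.92 CPM against 20.4 to 31.0; -1.80, adjusted p = 5.31e-05) and CNTN6 (201 and 200 against 239 to 383; -0.65, adjusted p = 0.0087), CNTNAP1 (-0.89, adjusted p = 0.00947) and 3 of the LRRTM genes, LRRTM2, LRRTM3 and LRRTM4, by -0.43, -0.39 and -0.41. LRRTM1, of the same family of postsynaptic organisers, was higher by 0.53 (adjusted p = 0.0424). The LRRTM1 call was lost in 7 of 10 alternatives, LRRTM2 in 5, and LRRTM3 and LRRTM4 in 2 each, pooling among them for all 4 genes. Without IT_A_1 the calls were 10 and with the other nuclei pooled 7, each of them lower. Against IT_A_3 alone, 3 of the 37 were lower and 1 higher. The counts were 14 lower and 2 higher against IT_A_1, 8 and 1 against IT_A_2, and 11 and 2 against IT_A_4. TENM1, a teneurin, stood at 57.5 and 94.2 CPM against 16.3 to 101 (0.80) and did not pass (adjusted p = 0.0883), but passed with the block (5.92e-06).

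Of 28 cadherins and protocadherins, 4 were higher and 3 lower (8 and 5 with the block; median 0.06). CDH12 stood at 294 and 269 CPM against 562 to 954 (-1.47 ± 0.124, adjusted p = 4.73e-05). PCDH19 and PCDH8, protocadherins of cell sorting, were higher, at 49.0 and 59.1 CPM against 17.3 to 40.7 and at 25.4 and 22.9 against 6.98 to 18.3 (0.96 and 1.06, adjusted p = 9.68e-04 and 0.00101). CDH13 was lower (log2 fold change -1.0, adjusted p = 0.00445), with 207 and 193 CPM within the range of the other types (192 to 1088).

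Of 54 axon guidance genes, 10 were higher and 8 lower (15 and 11 with the block, 5 and 7 with the other nuclei pooled; median 0.01). The netrin receptor gene UNC5D stood at 385 and 295 CPM against 803 to 2342 (-1.92 ± 0.162, adjusted p = 4.73e-05), and the repellent SLIT2 at 140 and 118 against 205 to 367 (-1.17, adjusted p = 8.42e-05). SEMA5A was lower by -1.88 (adjusted p = 0.00566). EPHB2, an ephrin receptor, stood at 288 and 224 CPM against 23.7 to 208 (1.34 ± 0.334, adjusted p = 0.025), and PLXND1, a semaphorin receptor, at 150 and 96.8 against 20.9 to 103 (1.24 ± 0.251, adjusted p = 0.00901). Both calls were lost with the other nuclei pooled (adjusted p = 0.0693 and 0.064), and that of EPHB2 also with DESeq2 (adjusted p = 0.053). In the edgeR test against single types, EPHB2 passed for IT_A_4 (2.79, adjusted p = 0.00366). It did not pass for IT_A_1, IT_A_2 or IT_A_3 (adjusted p = 0.165, 0.339 and 0.416). PLXND1 passed for IT_A_1 and IT_A_4, but not for IT_A_2 or IT_A_3 (adjusted p = 0.442 and 0.27). EPHB2 was lower in animal 2 than in animal 1 in IT_A_5 and in each of the other 4 types.

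Of 70 matrix and proteoglycan genes, 6 were higher and 12 lower (8 and 20 with the block; median -0.21). CHST9, a sulfotransferase, stood at 957 and 952 CPM against 164 to 578 (1.59 ± 0.118, adjusted p = 1.84e-05), and no other subclass exceeded it in both animals. ADAMTS2, a procollagen protease, stood at 159 and 180 CPM, below IT_A_4 (293 and 208) and above the other types (9.75 to 22.4; 2.47 ± 0.183, adjusted p = 1.84e-05). HS3ST2, a heparan sulfate sulfotransferase, was lower, at 6.97 and 5.96 CPM against 9.67 to 88.2 (-1.98, adjusted p = 8e-04), and the glypican GPC1 stood at 49.0 and 55.8 against 94.8 to 163 (-1.42, adjusted p = 0.00625). COL4A2, a basement membrane collagen gene that peaks in endothelial cells, differed between the animals (12.2 and 2.86 CPM; -1.62, adjusted p = 0.0813). It passed with the block (6.08e-04), with equal numbers of nuclei (0.0481) and without the filter on low counts (7.17e-15), but not in the other alternatives.

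Of the genes induced by neuronal activity, all 12 tested had a negative log2 fold change, with a median of -0.95, and BDNF, NPTX2 and ARC were called (3 of 12; 6 with the block, 2 with the other nuclei pooled). NPTX2, a secreted pentraxin that gathers AMPA receptors, stood at 0.996 and 3.34 CPM against 6.82 to 35.1 (-2.39, adjusted p = 0.00607), and ARC, an immediate early gene of synaptic scaling, at 0.747 and 1.43 against 1.46 to 4.88 (-1.51, adjusted p = 0.0337), which rests on fewer than 10 UMIs in each IT_A_5 sum. The ARC call was lost with DESeq2 (0.0872), in thinned nuclei (0.393), on labels from other genes (0.0781) and with the other nuclei pooled (0.106). HOMER1, a postsynaptic scaffold, stood at 440 CPM in animal 1 and 652 in animal 2. In the other types it was 468 to 780 in animal 1 and 1263 to 1871 in animal 2, so IT_A_5 was lowest within each animal while the animals overlapped. Its change of -1.10 ± 0.530 did not pass (adjusted p = 0.222), and passed with the block (4.25e-05). The early genes FOS, FOSB, NPAS4 and JUNB stood at 3.24 CPM or less in IT_A_5.

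Of 93 ribosomal and respiratory chain genes, 3 were called (3.23%), each of them higher, with a median of 0.10. RPL6 and RPS14 were among the 3, with log2 fold changes of 0.36 and 0.72, and 1 member of the list was called without IT_A_1. The RPL6 call was lost in 6 of 10 alternatives and that of RPS14 in thinned nuclei (0.0533). The list summed to 1846 and 1767 CPM in IT_A_5, against 1442 to 1896 in the other types.

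The animals differed little within IT_A_5. Of 6341 genes at 20 CPM or more in at least 1 animal, 43 (0.678%) differed by at least 2-fold and did not overlap between the libraries of one animal and the other, 10 higher in animal 2 and 33 in animal 1. The same count over the other types gave 0.812% to 1.59%. The genes named next were chosen after their values were seen, and no test was made, since each animal is 1 replicate. NOL11, a nucleolar protein gene, stood at 26.9 and 26.4 CPM in libraries 1A and 1B and at 136 and 147 in 2A and 2B, and was higher in animal 2 in each of the other types as well (log2 ratios 0.989 to 3.05). PROS1, the anticoagulant protein S gene, stood at 20.4 and 19.9 CPM against 2.25 and 2.90 and was lower in animal 2 in each other type (-2.75 to -1.76). NTSR1 stood at 98.6 and 96.4 CPM against 202 and 199, a log2 ratio of 1.03, while the other types had ratios of 0.145 to 0.796.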

How the data were processed

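Nuclei of V1 from 2 opossums were measured as 4 single-nucleus 3′ RNA-seq libraries (55625042 to 69706055 UMIs). The deposited matrices hold raw UMI counts per gene and nucleus, which the authors made with Cell Ranger (version 6.1.1 in the study's methods, 7.1.0 in the matrix headers) against genome ASM229v1 with intronic reads and with gene ends extended downstream. The deposited metadata give type and subclass labels and, as a fraction from 0 to 1, a Scrublet doublet score. All 32764 labelled nuclei met the study's stated filter (more than 700 and fewer than 6500 genes, fewer than 40000 UMIs), as did 2315 unlabelled barcodes, which were not used. Doublets called by Scrublet were kept, and left out as an alternative. Of 30800 genes, 11590 carried a symbol in the files.

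Counts were summed per animal and type and tested with edgeR 4.0.16 (R 4.3.3; TMM scaling, filterByExpr, quasi-likelihood test, Benjamini-Hochberg adjustment at 0.05), on 10 sums for the IT_A types and 16 for the comparisons with IT_B, IT_C and IT_D. The log2 fold change is against the mean of the other 4 types, with its SE derived from the F statistic, and levels are plain CPM of each sum, which are not compared between genes. The scripts were tested on simulated data. The same animals gave every type, so the animal number pairs the sums: deviations of same-animal sums correlated at 0.224 to 0.473 (10 pairs of types, 17001 genes). The fit with the animal as a block was an alternative, as were DESeq2 1.42.0 and its size factors, no filter on low counts, equal numbers of nuclei, nuclei thinned to 5846 UMIs, the other types pooled, and labels assigned from other genes. Leaving out IT_A_1 was added after seeing the data.

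Named genes were the 14 with the largest change in each direction that were called, had a symbol and at least 20 CPM on the higher side in both animals, and lay on one side of each other type in both animals. Up to 5 examples per list were taken, and other list members named in the text were chosen after their values were seen. The members and lists were chosen with earlier results of these data known, and list entries that shared only letters with a family were removed after values were seen. Correlations used 3000 variable genes, and label transfer used 30 components and 15 neighbours (scikit-learn 1.9.0). Intervals cover counting error only. No sequence or genome coordinates were used here. Some genes of the lists are not reported here by name.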

Additional observations from a re-analysis of the deposited data

How the results depend on the processing

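Over 97 named or listed genes and 10 alternatives, 914 of 970 fold changes kept their side of the threshold, 21 were lost, 35 were gained and 0 changed direction. With the animal as a replicate block, 10 gene calls were gained and 0 lost, and counts of called genes rose to 3608 against the mean of the other types, 2733 against IT_A_2, 2373 against IT_A_3 and 3701 against IT_A_4. Those not given in the report include RPL39 (adjusted p = 0.0276). Pooling the other types gave 1061 called genes. Thinning gave 2527 against IT_A_1, and no filter on low counts gave 1790 against IT_A_3, of which 41.1% were higher in place of 52.9%. With equal numbers of nuclei the counts were 1743 against IT_B, 1905 against IT_C and 2169 against IT_D, fewer nuclei entering these sums. The cause of the other shifts was not tested. The other 49 of 59 counts stayed within 1.5 times, among them 1786 by DESeq2, 1711 in thinned nuclei and 1767 without IT_A_1 (1599 of these among the 2096). IT_A_5 made up 6.91% of all IT nuclei and 4.929% of glutamatergic nuclei, and the mean of UMIs per nucleus was 8366. From one animal alone, the share was 8.68% to 11.6% and the median depth 7281 to 8094 UMIs. Tests from a single animal have no residual degrees of freedom and were not made, and in one animal alone none of the 194 fold changes of these genes changed sign.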

Other observations

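Many of the differences lay in genes to which the files give no symbol. They made up 45.5% of the genes tested, 43.1% of those called higher in IT_A_5 (468 genes) and 35.8% of those called lower (362 genes), and took 31.3% and 30.9% of the UMIs of IT_A_5 in animals 1 and 2, against 29.8% to 33.9% in the other types. ENSMODG00000041130 stood at 40.8 and 33.9 CPM in IT_A_5 against 1.38 to 10.6 in the other types (log2 fold change 3.24 ± 0.165, adjusted p = 2.19e-06 by edgeR), and no other subclass exceeded it in both animals. ENSMODG00000044554 had a log2 fold change of 3.57, and ENSMODG00000005065 and ENSMODG00000046360 were lower by -3.71 and -3.56.

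Other genes differed between the animals within IT_A_5. PCSK6, a proprotein convertase gene, stood at 54.6 and 45.8 CPM in libraries 1A and 1B and at 12.3 and 17.0 in 2A and 2B, a log2 ratio of -1.69 outside the range of the other types (-0.94 to -0.00873). PRL, the prolactin gene, stood at 148 and 132 CPM against 52.8 and 59.7, with ratios of the same sign in each other type (-1.86 to -0.289). These genes were chosen after their values were seen, and the difference between the types was not tested.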
